A study of Homo sapiens with 4 samples.

Results

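The genes described here are 9 heat shock chaperones and co-chaperones together with DNAJC12, 10 genes of the 50653 in the deposited table. They were chosen by name with the fold changes after QPRT knockdown already known, because DNAJC12 was higher in both cell lines, so their differences between shRNAs are given as a description and carry no test. All 10 had a mean of at least 1 FPKM (fragments on a gene scaled to its transcript length and to the library total, a level per length) and are among the 14321 genes that reached this minimum. RNA was sequenced from BT-20 and MDA-MB-468, established human triple-negative breast cancer lines, each transduced with a lentivirus carrying either a control shRNA or an shRNA against QPRT, an enzyme of NAD synthesis from quinolinate, and selected with puromycin. All 4 groups therefore carry a lentiviral hairpin and went through selection, and no untransduced cells were analysed here. Each of the 4 groups is 1 library, so no difference between shRNAs within a line has a replicate check, and it cannot be told apart from a difference between the transduced cultures.

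Heat shock proteins are molecular chaperones that bind unfolded stretches of other proteins. HSP70 proteins hold and release clients in cycles of ATP hydrolysis; J domain proteins bring clients and start hydrolysis, nucleotide exchange factors such as HSPH1 and BAG3 let the client go, and HSP90 takes over some of them for final maturation. Small heat shock proteins such as HSPB1 hold unfolded proteins without ATP, and HSPE1 is the lid of the mitochondrial chaperonin HSPD1. Many of these genes are induced by heat shock factor 1, which binds inverted repeats of a short unit, the heat shock element, in their promoters. DNAJC12 is a J domain protein known as the partner of the aromatic amino acid hydroxylases, and is not a classical heat shock gene.

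The targeted gene checked the labels first. In BT-20, QPRT stood at 249 FPKM under control shRNA and at 40.5 under QPRT shRNA; MDA-MB-468 had 117 and 18.3 FPKM. The libraries held between 10321996 and 10945948 fragments. Of the receptors that define triple-negative tumors, PGR was listed at 0 in all 4 libraries and ESR1 at 1.05 to 5.76 FPKM, while ERBB2 was at 50.7 to 129 FPKM and the basal receptor gene EGFR at 179 to 951. Markers of other tissues moved with the shRNA. The summed level of 6 intestinal epithelial genes was 20.1 FPKM in the BT-20 control library, 8.15 in the BT-20 QPRT shRNA library, and 44.8 and 8.32 in those of MDA-MB-468, with all 6 lower in both lines. All 5 gastric genes (sums 14.7, 4.03, 28.6 and 3.55 FPKM in the same order), 3 of 4 plasma cell genes (32.2, 15.2, 76.0 and 15.1) and all 4 fibroblast genes (33.0, 21.5, 19.8 and 15.4) were also lower with QPRT shRNA in both lines. The 3 leukocyte genes summed to at most 0.340 FPKM, with CD3E listed at 0 in 3 libraries and CD68 at 0 in 3. The part of these transcripts in the differences below was not tested.

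The promoters were compared for exact matches to the heat shock element, which not all of the 10 genes had in the bases searched. The 250 bases before each start site were read from RefSeq (GRCh38.p14) for all 10 genes, 13 windows in all since DNAJB1 has 3 listed starts and HSP90AA1 has 2. They were searched for a pair of facing heat shock units, GAANNTTC or TTCNNGAA, which together cover both strands, and for 3 units in a row, GAANNTTCNNGAA or TTCNNGAANNTTC; every match to 3 units also holds 2 overlapping pairs. A pair was found in 6 of the 13 windows, 1 each of DNAJB1, HSPA8, HSPA1A, HSPA1B, HSP90AA1 and HSPB1, against 11.6% of all 35116 promoter windows of this length. A run of 3 units was found in 2 of the 13 windows, those of HSPA8 and HSP90AA1, against 0.441% of all windows. The windows of DNAJC12, HSPH1, BAG3 and HSPE1 hold neither. The windows below are those of DNAJC12, which holds no match, and of 5 heat shock genes with a match, written 5′ to 3′ on the strand of the gene with the matched bases in capitals.
DNAJC12, chr10:67838189-67838438, minus strand: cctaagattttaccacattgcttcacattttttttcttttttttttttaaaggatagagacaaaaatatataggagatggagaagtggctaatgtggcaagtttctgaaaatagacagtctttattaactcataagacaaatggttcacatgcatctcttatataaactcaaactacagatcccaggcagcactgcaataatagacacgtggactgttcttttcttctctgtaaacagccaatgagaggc
DNAJB1, chr19:14518398-14518647, minus strand: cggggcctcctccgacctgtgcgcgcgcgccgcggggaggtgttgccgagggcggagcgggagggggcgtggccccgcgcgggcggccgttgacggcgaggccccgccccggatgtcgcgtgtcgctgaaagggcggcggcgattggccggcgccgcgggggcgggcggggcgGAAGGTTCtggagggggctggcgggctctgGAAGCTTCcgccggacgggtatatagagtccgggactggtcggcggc
HSPA8, chr11:123062137-123062386, minus strand: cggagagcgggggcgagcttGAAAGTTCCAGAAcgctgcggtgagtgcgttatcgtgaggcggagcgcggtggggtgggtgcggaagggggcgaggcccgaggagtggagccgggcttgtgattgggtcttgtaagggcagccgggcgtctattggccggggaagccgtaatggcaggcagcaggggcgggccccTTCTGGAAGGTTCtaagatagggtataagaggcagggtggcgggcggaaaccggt
HSPA1A, chr6:31815293-31815542, plus strand: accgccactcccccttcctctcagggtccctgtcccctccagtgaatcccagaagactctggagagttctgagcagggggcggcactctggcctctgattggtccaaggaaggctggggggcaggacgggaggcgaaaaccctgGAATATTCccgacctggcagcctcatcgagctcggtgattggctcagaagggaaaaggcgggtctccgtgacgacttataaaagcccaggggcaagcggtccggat
HSPA1B, chr6:31827488-31827737, plus strand: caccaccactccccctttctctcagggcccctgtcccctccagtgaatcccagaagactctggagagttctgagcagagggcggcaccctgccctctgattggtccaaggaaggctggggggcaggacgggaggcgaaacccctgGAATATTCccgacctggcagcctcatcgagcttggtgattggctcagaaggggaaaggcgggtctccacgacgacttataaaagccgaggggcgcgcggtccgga
HSP90AA1, chr14:102087045-102087294, minus strand: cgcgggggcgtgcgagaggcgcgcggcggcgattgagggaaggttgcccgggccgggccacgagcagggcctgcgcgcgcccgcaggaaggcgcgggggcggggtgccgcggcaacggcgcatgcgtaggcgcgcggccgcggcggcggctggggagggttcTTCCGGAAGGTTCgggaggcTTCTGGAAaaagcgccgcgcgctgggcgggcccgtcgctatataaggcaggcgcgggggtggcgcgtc

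In HSPA8 the runs of 3 units begin 230 and 55 bases before the start site, and in HSP90AA1 the run begins 88 bases before it, with a further pair 68 bases before. DNAJB1 has pairs 77 and 47 bases before its start. HSPA1A and HSPA1B have the same pair, GAATATTC, 106 and 105 bases before their starts, and their windows are identical at 93.6% of 251 aligned positions. HSPB1, whose window is not printed, has a pair 182 bases before its start. A match is a description of the letters and says nothing on whether the factor was bound in these cells. A missing match covers only these exact letters in these windows, so it does not show that a gene lacks an element.

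DNAJC12 (chr10:67796665-67838166, minus strand, GENCODE 29 on GRCh38) was the least abundant of the 10 genes in every library. In BT-20 it stood at 1.43 FPKM under control shRNA and at 4.08 under QPRT shRNA; MDA-MB-468 had 2.46 and 6.35 FPKM. Both QPRT shRNA libraries were above both control libraries, and in bulk RNA more cells with the transcript and more transcript per cell cannot be told apart. FPKM was 2.85-fold higher in BT-20 cells and 2.58-fold higher in MDA-MB-468, which is a log2 difference of 1.06 and 1.09 once 1 FPKM is added to each value. These levels rest on 13, 38, 23 and 56 fragments in the same order. The exact 95% interval of the log2 ratio of fragments was 0.57 to 2.54 for BT-20, and for MDA-MB-468 it was 0.64 to 2.14. Here and throughout, such intervals cover counting error only, as each group is 1 library. PCR copies of a molecule were not told apart, so the intervals may be too narrow even for that error. In BT-20, 0.873% of the 14321 genes had a larger fold change, and in MDA-MB-468 0.817%. DNAJC12 is 1 of 3 genes at least 2-fold higher in both lines, a background of 0.0209% of genes; the other two are listed without a symbol. Genes of its known clients were low or differed by line. TH, tyrosine hydroxylase, was at 23.0 and 21.0 FPKM in BT-20 but at 0.237 FPKM (3 fragments) and 0 in MDA-MB-468. TPH1 and TPH2, tryptophan hydroxylases, were at or below 0.201 FPKM in every library.

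**Figure D1:**
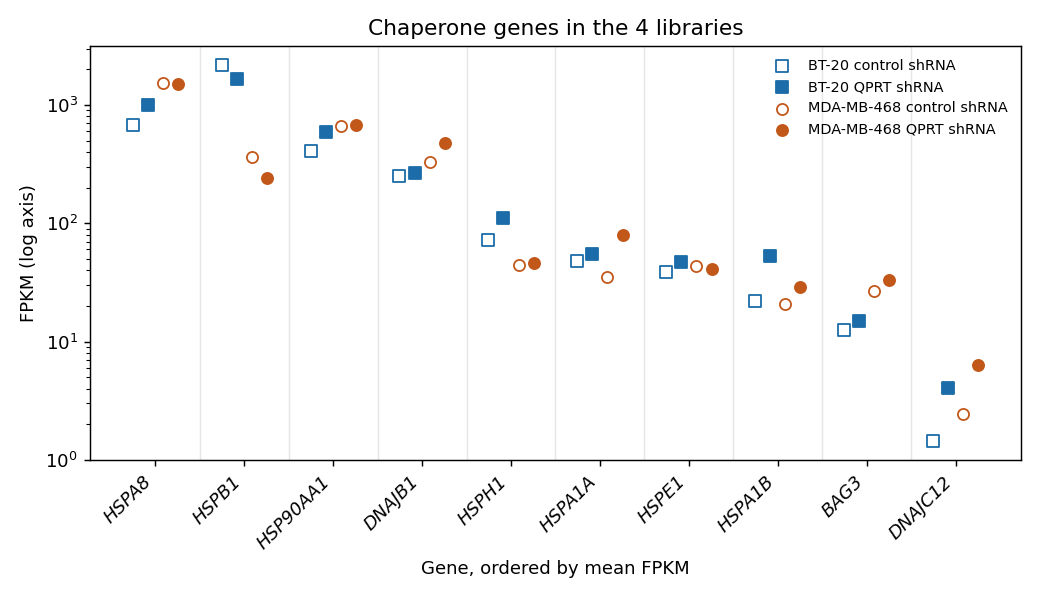
FPKM (log axis) of the 10 genes in the 4 libraries, ordered by mean level; squares are BT-20, circles MDA-MB-468, open symbols control shRNA and filled symbols QPRT shRNA. DNAJC12 lies lowest, between 1.43 and 6.35 FPKM, and HSPB1 is the only gene whose BT-20 libraries stand several-fold above its MDA-MB-468 libraries.

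DNAJB1 (chr19:14514770-14529770, minus strand), the heat-inducible J domain partner of cytosolic HSP70, was abundant throughout. Its level was 249 and 268 FPKM in BT-20 with control and QPRT shRNA, and 332 and 479 FPKM in MDA-MB-468. The log2 difference with QPRT shRNA was 0.11 in BT-20 (counting interval 0.025 to 0.19) and 0.53 in MDA-MB-468 (0.46 to 0.59). Both lines were therefore higher with QPRT shRNA, the larger difference being in MDA-MB-468. Once the trend of fold change on GC content and transcript length across genes was removed, the values were 0.28 and 0.43, closer to each other.

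HSPA8 (chr11:123057489-123063230, minus strand), the constitutive HSP70, was higher with QPRT shRNA in BT-20 cells and close to unchanged in MDA-MB-468. It stood at 675 and 1004 FPKM in BT-20 cells and at 1539 and 1498 FPKM in MDA-MB-468, with control and QPRT shRNA. The log2 difference was 0.57 in BT-20 (interval 0.53 to 0.61) and -0.04 in MDA-MB-468 (-0.068 to -0.010). Of DNAJB1 there were 36.9, 26.7, 21.6 and 32.0 FPKM per 100 FPKM of HSPA8 in BT-20 control, BT-20 QPRT, MDA-MB-468 control and MDA-MB-468 QPRT shRNA libraries, so the ratio was lower with QPRT shRNA in BT-20 cells and higher in MDA-MB-468.

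HSPA1A (chr6:31815464-31817946) and HSPA1B (chr6:31827735-31830255), both on the plus strand, encode the stress-inducible HSP70. HSPA1A was at 47.8 and 54.9 FPKM in BT-20 cells and at 35.3 and 79.4 in MDA-MB-468, a log2 difference of 0.20 (interval 0.083 to 0.32) and 1.15 (1.05 to 1.29). HSPA1B was at 21.9 and 52.8 FPKM in BT-20 cells and at 20.7 and 29.1 in MDA-MB-468, a log2 difference of 1.23 (1.13 to 1.41) and 0.47 (0.33 to 0.65). Taken singly, HSPA1B had the larger difference in BT-20 cells and HSPA1A in MDA-MB-468. The division between them is uncertain, because the reads of the copies are hard to tell apart. Their longest transcripts, of 2483 and 2521 bases, share an identical run of 1715 bases, and 69.9% of all stretches of 100 bases in HSPA1A also occur in HSPA1B. In addition, 36.5% of the exon bases of HSPA1B lie within AL671762.1, a gene on the same strand that has no row in the table. Whether reads that match both copies were counted is not given in the sources used here. The sum of both genes depends little on how counted reads were divided between them: it was 69.7 and 108 FPKM in BT-20 cells and 55.9 and 108 FPKM in MDA-MB-468. The sum was 1.55-fold higher with QPRT shRNA in BT-20 cells and 1.94-fold higher in MDA-MB-468, below 2-fold in both lines. HSPA1A made up 68.6% and 51.0% of the sum in BT-20 cells and 63.1% and 73.2% in MDA-MB-468.

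**Figure D2:**
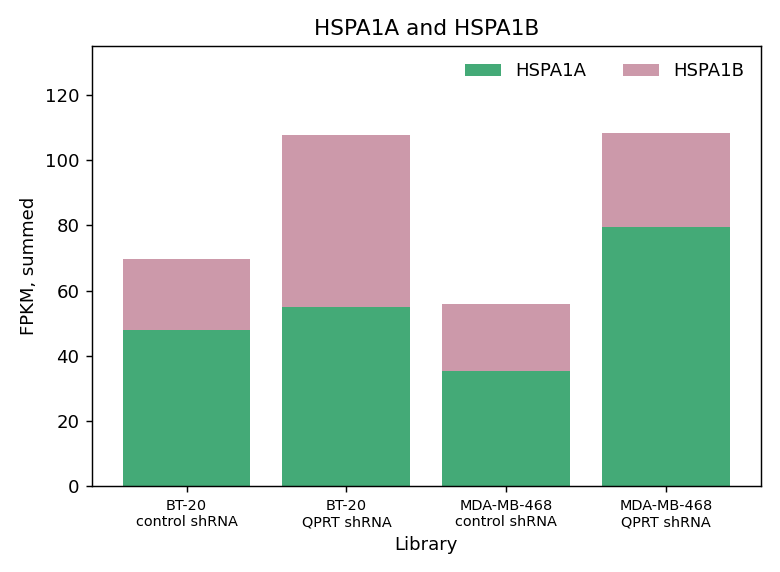
Stacked bars of the FPKM of HSPA1A (lower) and HSPA1B (upper) in each of the 4 libraries, from 0. The summed bars reach 108 FPKM with QPRT shRNA in both lines, against 69.7 and 55.9 FPKM with control shRNA, while the division between the copies differs by line.

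HSPH1 (chr13:31134974-31162388, minus strand), an HSP110 protein that exchanges the nucleotide of HSP70, was at 72.0 and 110 FPKM in BT-20 cells and at 44.5 and 46.3 in MDA-MB-468. Its log2 difference was 0.61 in BT-20 (interval 0.54 to 0.69) and 0.06 in MDA-MB-468 (-0.048 to 0.16), where the interval includes 0. BAG3 (chr10:119651370-119677819, plus strand), which links HSP70 to small heat shock proteins and to autophagy, was at 12.5 and 14.9 FPKM in BT-20 cells and at 26.8 and 32.9 in MDA-MB-468. Its log2 differences, 0.24 (0.0090 to 0.50) and 0.29 (0.13 to 0.46), were of similar size in both lines. HSP90AA1 (chr14:102080738-102139699, minus strand), the inducible cytosolic HSP90, was at 406 and 596 FPKM in BT-20 cells and at 659 and 679 in MDA-MB-468. Its log2 difference was 0.55 in BT-20 (0.50 to 0.60) and 0.04 in MDA-MB-468 (0.00032 to 0.085), and the latter became -0.0030 with upper quartile scaling. HSPA8 and HSP90AA1 thus had the larger difference in BT-20, 0.57 and 0.55, and values near 0 in MDA-MB-468. For HSPH1 the contrast between the lines was smaller once the trend of fold change on GC content and transcript length was removed, at 0.37 in BT-20 cells and 0.21 in MDA-MB-468.

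HSPB1 (chr7:76302544-76304295, plus strand), the small heat shock protein HSP27, was the single gene of the 10 that was lower with QPRT shRNA in both lines. It stood at 2189 and 1674 FPKM in BT-20 cells and at 362 and 242 FPKM in MDA-MB-468. The log2 difference was -0.39 in BT-20 (interval -0.42 to -0.36) and -0.58 in MDA-MB-468 (-0.66 to -0.51). With the same trend removed, the BT-20 value shrank to -0.17 while the MDA-MB-468 value grew to -0.75, so they lay farther apart. HSPE1 (chr2:197499994-197503457, plus strand) varied least, from 38.4 to 47.3 FPKM. It was at 38.4 and 47.3 FPKM in BT-20, a log2 difference of 0.30 (0.063 to 0.54), and at 43.6 and 40.7 in MDA-MB-468, a difference of -0.10 (-0.34 to 0.14). HSPD1, its chaperonin partner, which is transcribed from the same promoter region in the other direction, was at 740 and 775 FPKM in BT-20 cells and at 762 and 672 in MDA-MB-468. HSPE1 shares 14.2% of its exon bases with HSPD1 on the opposite strand and 9.71% with the readthrough gene HSPE1-MOB4, listed at 0. It has 26 named pseudogenes, none above 0.692 FPKM. Whether reads that match several genes were counted is not given, so these low values do not limit the error of its level.

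**Figure D3:**
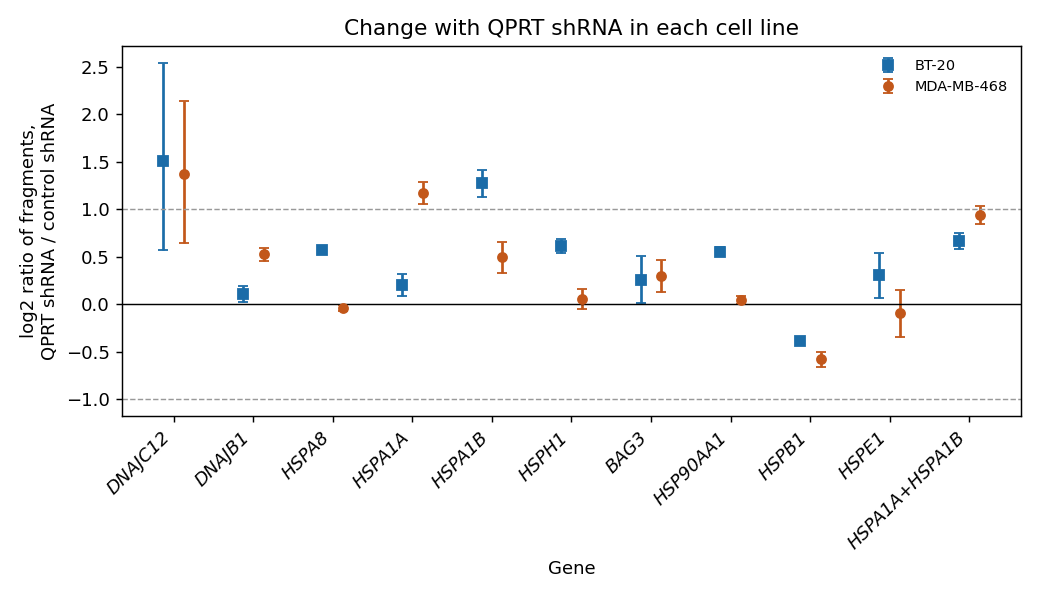
Log2 ratio of fragments per library total, QPRT shRNA over control shRNA, for the 10 genes and for the sum of HSPA1A and HSPA1B; squares are BT-20, circles MDA-MB-468, bars are exact 95% intervals for counting error only, and dashed lines mark 2-fold. DNAJC12 has the widest intervals, from 0.57 to 2.54 in BT-20, and HSPB1 lies below 0 in both lines.

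Over the 10 genes, the median log2 difference with QPRT shRNA was 0.42 in BT-20 cells and 0.17 in MDA-MB-468, beside 0.05 and 0.01 over all 14321 genes. In BT-20, DNAJC12 and HSPA1B were at least 2-fold higher, 2 of 10 against a background of 1.05% of genes. In MDA-MB-468, DNAJC12 and HSPA1A were, 2 of 10 against 1.03%. None was 2-fold lower, against 0.649% of genes in BT-20 cells and 0.866% in MDA-MB-468. At 1.5-fold the counts were 3 higher in BT-20 (background 5.7%) and 2 in MDA-MB-468 (5.46%), with 0 lower in either (3.27% and 3.71%). HSPB1 in MDA-MB-468, at -0.58, fell just short of 1.5-fold lower. It passed with upper quartile scaling (-0.63), TPM scaling (-0.60) or the trend on GC content and length removed (-0.75). The value nearest above 2-fold was that of DNAJC12 in both lines, and the nearest below was 0.61 for HSPH1 in BT-20 cells and 0.53 for DNAJB1 in MDA-MB-468. DNAJC12, DNAJB1, HSPA1A, HSPA1B, HSPH1, BAG3 and HSP90AA1, 7 of 10, were higher in both lines, which 26.2% of all genes were, and HSPB1 alone was lower in both, as were 17.7%. Since the genes were chosen with this contrast known, nothing is read from these counts.

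The cell lines were compared next, a contrast that the choice of genes did not use. The 2 libraries of a line differ in shRNA and are used as replicates, which leaves 1 residual degree of freedom per gene in limma. The spread was therefore taken largely from the eBayes trend over all genes at a similar level. The SEs were alike for this reason, 0.186 for HSPA8 and 0.187 for HSPB1. A p-value here does not measure the spread between the 2 libraries of that gene, and its size is not read further. HSPB1 differed most: both BT-20 libraries were far above both MDA-MB-468 libraries, 6.45-fold on the log2(FPKM + 1) scale, with a log2 difference of -2.69 ± 0.19 (SE; limma, Benjamini-Hochberg adjusted p = 5.1e-45). HSPH1 was also lower in MDA-MB-468, with a log2 difference of -0.96 ± 0.21 (adjusted p = 1.4e-05 in limma). BAG3 (1.06 ± 0.23, adjusted p = 1.7e-05 in limma), HSPA8 (0.88 ± 0.19, 9.0e-06), DNAJB1 (0.62 ± 0.19, 0.0026) and HSP90AA1 (0.44 ± 0.19, 0.035) were higher in MDA-MB-468. In these 6 genes the libraries of the lines do not overlap, which was so for 77.6% of all genes. The 6 of 10 called compare with 55.1% of all genes, 30.7% higher and 24.4% lower in MDA-MB-468, so the lines differ at these genes about as often as at any. HSPB1 was also called after leaving out any 1 of the 4 libraries. With 3 libraries the shRNA block cannot be kept, so these fits dropped both a library and the block; with all 4 libraries and no block 5 of the 6 were called, HSP90AA1 being lost. Without the BT-20 QPRT shRNA library 5 of the 6 were called, without the MDA-MB-468 control library 3, without the BT-20 control library 2, and without the MDA-MB-468 QPRT shRNA library only HSPB1, beside 31.2% to 33.9% of all genes called in these fits. The HSP90AA1 call was the least stable, with an adjusted p in limma of 0.077 without the block, 0.12 without the eBayes trend and 0.21 with no filter on low values, where the calls of DNAJB1 (0.082) and HSPA8 (0.067) were lost too.

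DNAJC12 was 0.52 ± 0.29 higher in MDA-MB-468 on the log2 scale (adjusted p = 0.11 in limma), and the libraries of the lines overlap. HSPA1A (0.05 ± 0.21, adjusted p = 0.86 in limma), HSPA1B (-0.46 ± 0.22, 0.067) and HSPE1 (-0.02 ± 0.21, 0.95) did not pass either. HSPA1A was lower in MDA-MB-468 with control shRNA, by a log2 value of -0.43, and higher with QPRT shRNA, by 0.52. HSPA1B gave -0.08 and -0.84, and the sum of both copies, which depends less on the uncertain division between them, gave -0.31 and 0.01.

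**Figure D4:**
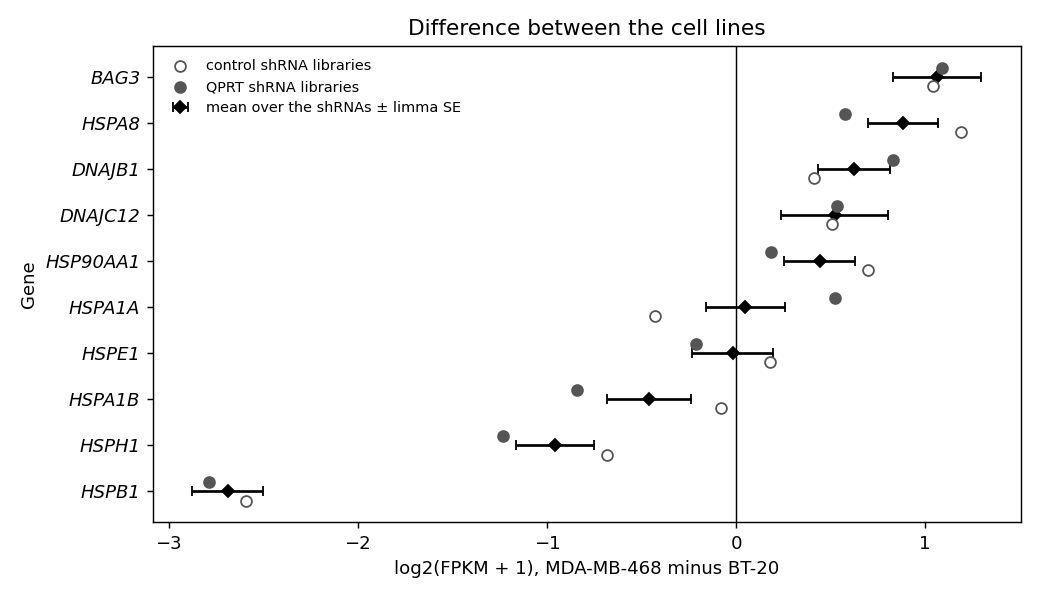
Difference in log2(FPKM + 1) between MDA-MB-468 and BT-20 for each gene; open circles are the control shRNA libraries, filled circles the QPRT shRNA libraries, and diamonds their mean with the limma standard error. HSPB1 lies at -2.69, far from the others, and HSPA1A has its circles on either side of 0.

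The make-up of this chaperone set, in FPKM, differed by line. The order of genes and their shares of the sum depend on the mean annotated transcript length that enters FPKM. In the BT-20 control library HSPH1 had 2317 fragments and 72.0 FPKM, and DNAJB1 2259 fragments and 249 FPKM. Their mean lengths are 3031 and 854 bases. A comparison of 1 gene between libraries does not depend on this length. In the control libraries, HSPB1 led in BT-20 with 2189 FPKM, followed by HSPA8 with 675, HSP90AA1 with 406 and DNAJB1 with 249. In MDA-MB-468, HSPA8 led with 1539 FPKM, followed by HSP90AA1 with 659, and HSPB1 at 362 and DNAJB1 at 332 were next. HSPB1 made up 59.0% and 43.7% of the summed FPKM of the 10 genes in BT-20, with control and QPRT shRNA, and 11.8% and 7.73% in MDA-MB-468. The whole sum was 3714 and 3826 FPKM in BT-20 cells and 3066 and 3132 in MDA-MB-468. Without HSPB1 it was 1524 and 2153 FPKM in BT-20 cells and 2703 and 2890 in MDA-MB-468. HSPA8, the largest of the rest, took 18.2% and 26.2% of the sum in BT-20 cells and 50.2% and 47.8% in MDA-MB-468. BAG3 and its small heat shock partner HSPB8 went opposite ways between the lines: HSPB8 was at 126 and 94.1 FPKM in BT-20 cells and at 0 and 0.0906 FPKM (1 fragment) in MDA-MB-468.

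The rest of the chaperone system was read from 10 lists of 104 genes, of which 91 were tested. Over both lines, with the cell line as a block, limma called 0 of these 91 genes as higher and 0 as lower (adjusted p under 0.05), beside 0.265% and 0.363% of all genes, and limma-voom on recovered fragments also called 0. At an unadjusted p under 0.05 there were 4 of the 91, beside 4.8% of all genes. The smallest adjusted p was 0.22 in limma, for DNAJA3, a mitochondrial J domain protein at 97.9 and 68.3 FPKM in BT-20 cells and 62.1 and 36.8 in MDA-MB-468. None of the 91 was 2-fold higher in either line. In BT-20, 2 of the 91 were 2-fold lower, beside 0.649% of all genes: CRYAB, a small heat shock protein, at 40.8 and 13.6 FPKM, and SDF2L1, an endoplasmic reticulum co-chaperone, at 169 and 79.7. In MDA-MB-468 neither was lower, with CRYAB at 83.8 and 101 FPKM and SDF2L1 at 167 and 179.

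By list, 22 other J domain genes, outside the mitochondrial and endoplasmic reticulum lists, had a median log2 difference of 0.13 in BT-20 cells and 0.01 in MDA-MB-468. In this list DNAJC14 was at 4.23 and 5.79 FPKM in BT-20 cells and at 3.72 and 6.35 in MDA-MB-468. The 7 other HSP70 and HSP110 genes had medians of 0.05 and -0.10, and HSPA6, a strictly heat-inducible HSP70 gene, was at most 0.159 FPKM in any library. The 15 tested genes of HSP90 and its co-chaperones had medians of 0.08 and -0.02. FKBP4, an HSP90 co-chaperone of steroid receptors, was at 260 and 276 FPKM in BT-20 cells and at 78.5 and 115 in MDA-MB-468. The 7 BAG and nucleotide exchange genes had medians of 0.05 and 0.24, the 8 subunits of the cytosolic chaperonin -0.01 and -0.14, the 11 mitochondrial genes -0.06 and -0.03, and the 14 endoplasmic reticulum genes -0.22 and 0.06. The list of 3 heat shock factors and the factor-binding protein HSBP1 had medians of -0.21 and 0.12. HSF1, the main heat shock factor, was at 130 and 105 FPKM in BT-20 cells and at 61.1 and 60.2 in MDA-MB-468. The 2 tested small heat shock proteins, CRYAB and HSPB8, had medians of -0.97 and 0.20. All 91 together had medians of 0.04 and 0.01, near those of all genes.

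Between the lines, limma called 43 of the 91 genes, 25 higher and 18 lower in MDA-MB-468 (adjusted p under 0.05), beside the 30.7% and 24.4% of all genes given above. The co-chaperone CDC37, which brings kinases to HSP90, was 1.63 ± 0.19 higher on the log2 scale in MDA-MB-468 (adjusted p = 6.0e-17 in limma), and BAG1 was 1.37 ± 0.20 higher (7.2e-11). HSF1 (log2 difference -0.94 ± 0.20, adjusted p = 1.4e-05 in limma) and FKBP4 (-1.49 ± 0.19, 2.2e-13) were lower in MDA-MB-468. DNAJC18 was listed at 0 in both BT-20 libraries and at 4.98 and 7.68 FPKM in MDA-MB-468. Leaving out 1 library at a time, and with it the shRNA block, gave 24 to 29 calls, while all 4 libraries without the block gave 45.

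**Figure D5:**
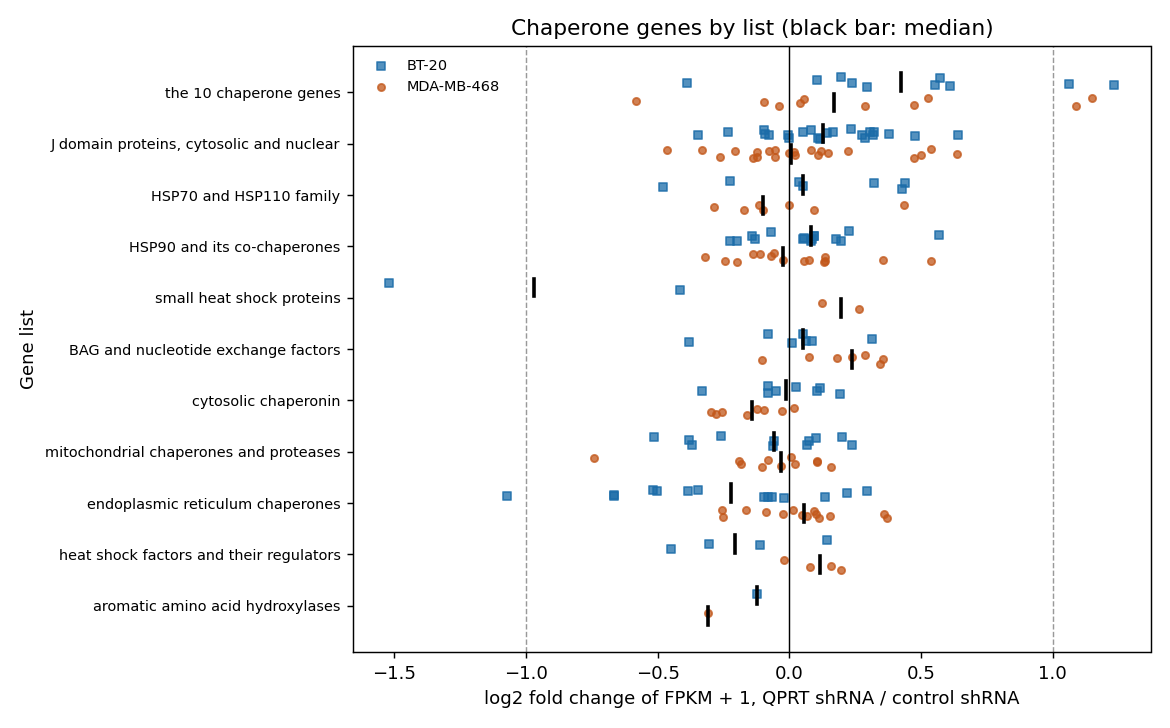
Log2 fold change of FPKM + 1, QPRT shRNA over control shRNA, of each tested gene, for the 10 chaperone genes (top) and the 10 lists of other genes; squares are BT-20, circles MDA-MB-468, black bars medians and dashed lines 2-fold. The 10 genes have medians of 0.42 and 0.17, and CRYAB in BT-20 lies farthest left.

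The genes whose profile was most like that of DNAJC12 were found by the Euclidean distance of log2(FPKM + 1), centred on its mean, over the 4 libraries. The nearest was GPNMB, a transmembrane glycoprotein, at a distance of 0.094 and with 43.2 and 85.9 FPKM in BT-20 cells and 63.8 and 132 in MDA-MB-468. SLC1A1, a glutamate transporter, followed at 0.288, then CAV1, the coat protein of caveolae, at 0.341, the pseudogene UBE2FP3 at 0.343 and the opsin gene OPN1SW at 0.396. Among the nearest to DNAJB1 were WTAP, a subunit of the RNA methyltransferase that makes m6A, at 0.062, then AUH at 0.064, WDR89 at 0.077 and ASCL2 at 0.087. Adding 1 FPKM shrinks the change of DNAJC12, 2.85-fold and 2.58-fold in FPKM, more than that of the more abundant GPNMB. Whether GPNMB stays nearest with another pseudocount was not tested. The distances rest on 4 libraries and are a description.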

How the data were processed

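The 4 libraries, 1 per cell line and shRNA, were sequenced by the authors on an Illumina NovaSeq system, and 1 table of FPKM values per gene was deposited. The submitters' processing notes name TopHat2 2.0.12 and HTSeq 0.6.1; the genome build is not given in the sources used here. Positions and transcript lengths are from GENCODE 29 (GRCh38). FPKM multiplied by mean transcript length came out as whole fragments, within 0.02, for 87.3% to 87.6% of values above 0 and for all 10 genes; the study's DESeq2 needs counts and was not run.

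Differences were taken on log2(FPKM + 1), computed from the deposited FPKM, which understates the change of low genes, for the 14321 genes whose mean FPKM reached 1, with 2-fold counted as changed. Intervals are exact (Clopper-Pearson, 95%). Lines were compared in limma 3.58.1 (R 4.3.3), eBayes with trend, shRNA as a block, with Benjamini-Hochberg adjustment over all genes; the step was tested on simulated data, where it recovered the changed genes but made more false calls than the threshold of 0.05 allows. The members and lists were chosen with earlier results of these data known. Named genes are the 10 genes, QPRT, HSPD1, up to 3 per list with the largest difference between lines and up to 3 with the largest mean change with QPRT shRNA, and the 5 nearest profiles to DNAJC12 and DNAJB1; HSPA5, HSPA6, the marker genes, the overlapping genes and the tryptophan hydroxylases were named outside this rule, and values of some single genes are not reported here. Alternatives were upper quartile and TPM scaling, a pseudocount of 0.1, no filter or a mean FPKM of at least 5, a 1.5-fold threshold, removal of GC and length trends (lowess, fraction 0.3), limma without block or trend, limma-voom, each library left out, and, chosen after seeing the data, HSPA1A and HSPA1B as 1 gene.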

Additional observations from a re-analysis of the deposited data

Results flagged for a closer look

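The 6 genes below had log2 differences of opposite sign with QPRT shRNA in the 2 lines, some of them near 0 in a line. With 1 library per group, the difference between the lines was not tested. Of all genes, 26.2% were above 0 in both lines and 17.7% below 0 in both. The rest went opposite ways or were at 0 in a line, so nothing is read from the count of 6. Among the genes described, HSPA8 had a log2 difference of 0.57 in BT-20 cells and -0.039 in MDA-MB-468, and HSPE1 had 0.30 and -0.10. The counting interval of HSPE1 in MDA-MB-468, -0.34 to 0.14, includes 0. Of the other chaperones that reached 1.5-fold in at least 1 line, DNAJC2, a J domain protein of the ribosome, had 0.64 and -0.12, the latter turning to 0.0010 once the trend on GC content and length was removed. CRYAB had -1.52 in BT-20 cells and 0.27 in MDA-MB-468. The endoplasmic reticulum HSP70, HSPA5, had -0.67 and 0.11. SDF2L1 had -1.07 and 0.10, the latter turning to -0.11 in the same way.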

How the results depend on the processing

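With a mean FPKM of at least 5, DNAJC12 dropped out and 1 gene of the set was 2-fold changed in each line; with HSPA1A and HSPA1B taken as 1 gene, an alternative chosen after seeing the data, it was also 1 in each. Between the lines, 3 of the 10 genes were called with no filter on low values, and 1 to 5 with 1 library left out and hence no shRNA block; the same gave 28 and 24 to 29 of the other chaperone genes. The share of all genes called was lower too, 20.0% with no filter and 31.2% to 33.9% with a library left out, from 55.1%. The cause of the lower counts without a filter was not tested. Without the shRNA block, with all libraries, 5 of the 10 were called, and with limma-voom 7. The other alternatives left these counts within 1.5 times, and no called value changed sign. The correlation of fold change with GC content across genes was -0.283 (Spearman) in BT-20 cells and 0.288 in MDA-MB-468; with both trends removed the medians of the 10 genes were 0.37 and 0.20. Without DNAJC12, below a mean FPKM of 5, the medians were 0.30 and 0.056. Leaving out 1 library leaves a line with 1 library, assumed to vary like the other. The labels carry no replicate numbers; libraries were paired by cell line or shRNA through the blocks. Depth limits DNAJC12 most, at 13 to 56 fragments.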
